A study of Mus musculus with 10 samples.

Results

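The genes described here make, modify, transport, attach and remove sialic acid, the acidic sugar that caps many glycans of the cell surface. They are the 10 rows named Gne, Nans, Cmas, Cmah, Slc35a1, St3gal1, St3gal4, St3gal6, St6gal1 and Neu1 among the 23510 gene rows of the deposited table. All 10 passed the filter on low counts. The members were selected on their function together with log2 fold changes and calls of the same comparison of anti-Ang2 with IgG, so their differences between the groups are given as a description, without p-values.

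RNA was sequenced from lymphatic endothelial cells (LEC), the cells lining lymphatic vessels. They were sorted by FACS out of MT-ret melanomas that had grown from fragments placed on the ventral flank of C57BL/6N mice. In the anti-Ang2 group, mice had an intraperitoneal injection of antibody against angiopoietin-2, a ligand of the endothelial receptor Tie2. In the IgG group, mice were injected with IgG in the same way. All mice were killed 12 hours later. The design counts 5 independent replicates per treatment, each library starting with 0.5 ng of RNA. The sorting gate, the antibody doses and the age of the mice are not stated in the labels.

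The anti-Ang2 libraries held 38090933 to 51786044 gene counts and the IgG libraries 40313230 to 83850341. The 9 LEC markers summed to 17740 ± 1929 CPM in anti-Ang2 and 19360 ± 1420 CPM in IgG libraries (SD, exact permutation p = 0.151, adjusted p = 0.176). CPM are read counts scaled to the library total, adjusted by TMM. In every library the LEC marker sum was above that of each other marker list. Of the 9 markers, 7 had a lower mean in anti-Ang2, with Flt4 at 2338 CPM in anti-Ang2 and 3199 CPM in IgG libraries. Lyve1 and Reln had a higher mean in anti-Ang2. The summed level of 11 melanoma markers was 3392 ± 1898 CPM (1133 to 5575) in anti-Ang2 and 980 ± 762 CPM (268 to 1859) in IgG libraries (exact permutation p = 0.0476, two-sided, and adjusted p = 0.111 over the 7 marker lists). That of 12 macrophage and monocyte markers was 145 ± 90.7 CPM (36.6 to 255.5) in anti-Ang2 and 56.9 ± 65.3 CPM (24.3 to 173.7) in IgG libraries (exact permutation p = 0.0952, adjusted p = 0.133). Blood endothelial markers summed to 3545 ± 1064 CPM in anti-Ang2 and 5286 ± 914 CPM in IgG libraries (exact permutation p = 0.0317, adjusted p = 0.111), where Plvap averaged 2216 CPM in anti-Ang2 and 4022 CPM in IgG libraries while 5 of the 8 markers had a higher mean in anti-Ang2. Pericyte markers summed to 321 ± 105 CPM in anti-Ang2 and 147 ± 63.0 CPM in IgG libraries (exact permutation p = 0.0317, adjusted p = 0.111), where Cspg4 averaged 172 CPM in anti-Ang2 and 53.2 CPM in IgG libraries while 3 of the 7 markers, Rgs5, Pdgfrb and Notch3, had a lower mean in anti-Ang2. All 11 melanoma and all 12 macrophage markers had a higher mean in anti-Ang2. B and T cell markers summed to 7.18 ± 2.24 CPM in anti-Ang2 and 11.1 ± 3.80 CPM in IgG libraries (exact permutation p = 0.0952, adjusted p = 0.133). Of these 10 markers, 9 had a lower mean in anti-Ang2. Fibroblast markers summed to 413 ± 226 CPM in anti-Ang2 and 433 ± 299 CPM in IgG libraries (exact permutation p = 0.929, adjusted p = 0.929), with 5 of 7 lower in anti-Ang2. No marker of any list was at 0 in every library. In such bulk libraries, fewer cells of a type and less RNA per cell cannot be told apart.

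Sialic acid is made in the cytosol from UDP-N-acetylglucosamine, joined to CMP in the nucleus, carried into the Golgi and transferred to the galactose or N-acetylgalactosamine ends of glycans, where it is read by lectins such as the Siglecs and selectins. In mice, part of the N-acetylneuraminic acid is hydroxylated to N-glycolylneuraminic acid while bound to CMP, a step that humans have lost. On lymphatic endothelium, sialic acid decorates the mucin-like podoplanin and the hyaluronan receptor Lyve1.

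Cmah, the hydroxylase that makes N-glycolylneuraminic acid, was about 10.3-fold lower after anti-Ang2, whereas Gne and Nans, which make sialic acid, and the Golgi carrier Slc35a1 had overlapping levels in the 2 groups and were not called. The CMP-sialic acid synthetase Cmas was 1.34-fold higher and the sialyltransferase St3gal6 was 1.43-fold higher. Among the members, 2 were called higher and 1 lower at an adjusted p under 0.05 (edgeR quasi-likelihood test with Benjamini-Hochberg adjustment over 16240 tested genes). Over all tested genes, 1.34% were called higher and 2.8% lower. The 3 called members were also the 3 whose anti-Ang2 and IgG libraries did not overlap in CPM. Over all tested genes, 6.1% did not overlap, 2.34% with anti-Ang2 higher and 3.76% with anti-Ang2 lower. The comparison that gave these counts was known when the members were chosen, so nothing is read from them. The median log2 fold change (anti-Ang2 over IgG) was 0.06 over the members and 0.01 over all tested genes.

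**Figure D1:**
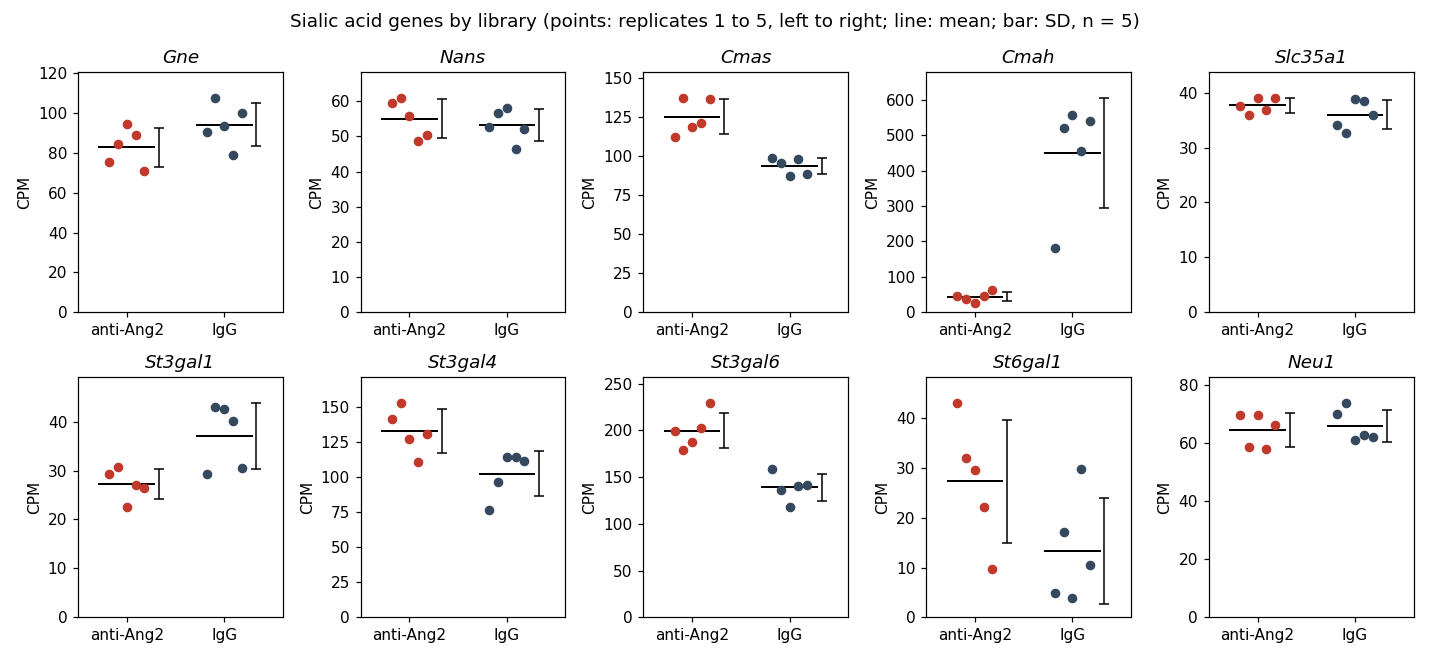
CPM of each sialic acid gene in every library, with anti-Ang2 on the left and IgG on the right of each panel, the mean as a line and the SD as a bar (n = 5). The groups are apart in Cmah, where the highest anti-Ang2 library had 61.7 CPM and the lowest IgG library 181.5 CPM, and in Cmas and St3gal6, and they overlap in the other 7 genes.

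The first enzyme of the route, Gne, turns UDP-N-acetylglucosamine into N-acetylmannosamine phosphate and sets the pace of synthesis. Gne (ENSMUSG00000028479.18, chr4:44034075-44084177 in mm10, minus strand) had 75.3, 84.4, 94.7, 89.3 and 71.0 CPM in the anti-Ang2 libraries, against 90.6, 107.8, 93.5, 79.1 and 100 CPM in the IgG libraries. The groups overlapped over most of their ranges, and the log2 fold change was -0.18 ± 0.10 (SE). Nans, the synthase that condenses this sugar to sialic acid phosphate (ENSMUSG00000028334.10, chr4:46489248-46503632, plus strand), averaged 55.1 ± 5.49 CPM in anti-Ang2 and 53.2 ± 4.52 CPM in IgG libraries (SD, n = 5 each), a log2 fold change of 0.05 ± 0.09 (SE). Its exons share 1356 bases with Trim14 on the other strand, and as the library kit does not mark strand, reads from that stretch cannot be assigned to either gene. Trim14 itself averaged 19.5 CPM in anti-Ang2 and 19.3 CPM in IgG libraries.

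Cmas, which couples sialic acid to CMP and so activates it for transfer, had 112.2, 137.4, 118.5, 121.0 and 136.7 CPM in the anti-Ang2 libraries, against 98.5, 95.6, 87.5, 98.0 and 88.2 CPM in the IgG libraries. Every anti-Ang2 library lay above every IgG library. The log2 fold change was 0.42 ± 0.08 (SE) and lay between 0.38 and 0.46 in every other setting tried. Cmas was no longer called with the melanoma marker sum as a covariate (0.43 ± 0.11), with the macrophage marker sum as a covariate (0.46 ± 0.10) or without anti-Ang2 1, 2 and 3, the libraries of highest melanoma sum (0.45 ± 0.09). The size stayed as large in these fits and the SE was wider. Both marker sums averaged higher in anti-Ang2, so fits with them as covariates cannot tell such RNA from treatment, for Cmas or any other gene. Cmas (ENSMUSG00000030282.14) spans chr6:142756686-142775714 (mm10, plus strand), from the start of its first to the end of its last exon, untranslated regions included.

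Cmah acts on the CMP-bound sugar that Cmas makes. Cmah had 45.9, 37.9, 26.6, 46.7 and 61.7 CPM in the anti-Ang2 libraries, against 181.5, 520.9, 558.1, 455.8 and 540.4 CPM in the IgG libraries. All 5 anti-Ang2 libraries were below all 5 IgG libraries, and IgG 1 stood well below the other IgG libraries. The deposited counts behind these values ran from 1384 to 2450 in the anti-Ang2 and from 7460 to 43153 in the IgG libraries. Counting error was therefore small against the spread between libraries. The log2 fold change was -3.37 ± 0.32 (SE). Of all tested genes 18, Cmah included, had a log2 fold change this low or lower, and only 2 with a lower one had a mean of at least 10 CPM over both groups.

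The call of Cmah held in each of the 19 other settings, with log2 fold changes of -3.63 to -2.64. Without IgG 1 the log2 fold change was -3.57. The smallest difference came with the macrophage marker sum as a covariate (-2.64 ± 0.23, SE). IgG 1, the IgG library with the least Cmah, also had the highest macrophage marker sum of the IgG libraries (173.7 CPM, against 24.3 to 30.7 CPM in the other 4), and the part of macrophages in the Cmah level of this library was not tested. With the melanoma marker sum as a covariate the log2 fold change was -3.22 ± 0.38. Cmah (ENSMUSG00000016756.16) spans chr13:24327404-24477377 (mm10, plus strand). In the annotation used here (GENCODE M21), none of its exons shares bases with an exon of another gene.

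**Figure D2:**
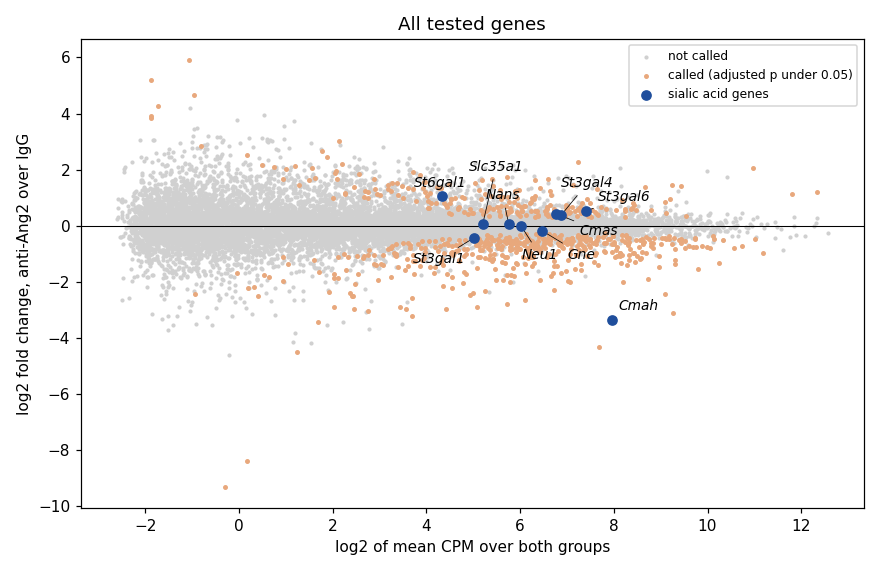
Log2 fold change (anti-Ang2 over IgG) of every tested gene against the log2 of its mean CPM over both groups, with called genes in orange and the 10 sialic acid genes in blue. Cmah lies at -3.37, far below the band of genes of similar level, while 8 of the other 9 lie between -0.45 and 0.52 and St6gal1 lies at 1.04.

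The sequences around the annotated starts of the 3 called members are shown because these genes differ in CpG content, a feature that sets promoter types apart. Each run covers 250 bases before and 50 bases from the start, 5′ to 3′ on the gene's strand, with every CpG in capitals (RefSeq, GRCm38.p6).
Cmah first start: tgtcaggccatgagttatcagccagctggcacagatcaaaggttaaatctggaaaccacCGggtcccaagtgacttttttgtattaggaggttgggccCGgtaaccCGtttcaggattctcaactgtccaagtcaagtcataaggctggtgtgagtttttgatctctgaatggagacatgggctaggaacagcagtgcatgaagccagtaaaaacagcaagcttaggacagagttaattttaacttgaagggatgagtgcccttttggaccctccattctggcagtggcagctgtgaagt
Cmah second start: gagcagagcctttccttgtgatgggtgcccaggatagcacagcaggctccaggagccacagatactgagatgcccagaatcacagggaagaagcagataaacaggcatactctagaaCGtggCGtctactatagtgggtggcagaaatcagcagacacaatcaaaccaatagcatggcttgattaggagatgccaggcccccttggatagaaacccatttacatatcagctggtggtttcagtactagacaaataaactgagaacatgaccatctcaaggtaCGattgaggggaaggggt
Cmas: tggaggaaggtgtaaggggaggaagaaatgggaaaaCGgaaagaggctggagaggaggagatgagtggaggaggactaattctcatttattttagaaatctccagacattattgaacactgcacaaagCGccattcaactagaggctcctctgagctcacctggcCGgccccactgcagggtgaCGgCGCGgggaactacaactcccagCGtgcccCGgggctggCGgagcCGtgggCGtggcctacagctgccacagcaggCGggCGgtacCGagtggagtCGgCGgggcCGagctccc
St3gal6 first start: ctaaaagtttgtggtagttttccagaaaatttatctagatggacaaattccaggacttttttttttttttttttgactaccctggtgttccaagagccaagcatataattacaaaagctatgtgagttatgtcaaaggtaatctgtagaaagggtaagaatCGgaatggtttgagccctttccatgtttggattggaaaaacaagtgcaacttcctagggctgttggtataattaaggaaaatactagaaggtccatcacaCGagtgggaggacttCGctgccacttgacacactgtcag
St3gal6 second start: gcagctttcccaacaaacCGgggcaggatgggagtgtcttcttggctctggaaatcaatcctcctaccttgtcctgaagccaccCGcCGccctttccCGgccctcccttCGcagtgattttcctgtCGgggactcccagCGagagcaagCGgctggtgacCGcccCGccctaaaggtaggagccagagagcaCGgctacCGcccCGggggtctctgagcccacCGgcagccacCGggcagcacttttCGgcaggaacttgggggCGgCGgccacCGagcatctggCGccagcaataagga
The runs lie at chr13:24327154-24327453 and chr13:24414872-24415171 on the plus strand for Cmah, at chr6:142756436-142756735 on the plus strand for Cmas, and at chr16:58524204-58524503 and chr16:58523377-58523676 on the minus strand for St3gal6. Both Cmah starts hold 3 CpGs, and 31.4% of the 32851 tabulated mouse promoters hold 3 or fewer. Cmas holds 17 CpGs, a number reached or passed by 31.4% of promoters, and St3gal6 holds 3 at its first and 20 at its second start. The GC box GGGCGG, searched on both strands, occurs 1 time at Cmas, 5 times at the second start of St3gal6 and not in either Cmah window, and it occurs in 35.7% of all promoters. The core FOXO motif GTAAACA, also searched on both strands, is in none of these 5 windows and in 3.65% of all promoters. Starts of 8 of the 10 members were in the table, and which starts were used in these cells cannot be read from gene counts.

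Downstream of activation, Slc35a1 carries CMP-sialic acid into the Golgi. Slc35a1 (ENSMUSG00000028293.14, chr4:34663257-34687438, minus strand) had 37.6, 35.9, 39.1, 36.9 and 39.0 CPM in the anti-Ang2 libraries, against 34.2, 32.6, 38.9, 38.5 and 35.9 CPM in the IgG libraries. IgG 1 and IgG 2 lay below every anti-Ang2 library and the other 3 IgG libraries lay among them (log2 fold change 0.07 ± 0.08, SE). With a coefficient of variation of 3.67% in anti-Ang2 and 7.56% in IgG libraries it was among the steadiest members.

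The 4 sialyltransferases among the members differed in direction. St3gal4 and St3gal6 cap N-acetyllactosamine ends and take part in building selectin ligands. St3gal1 caps the core of mucin-type O-glycans, and St6gal1 caps N-glycans in the linkage that the B cell lectin Cd22 reads.

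St3gal6 had 199.6, 179.5, 188.1, 202.2 and 229.5 CPM in the anti-Ang2 libraries, against 158.6, 136.8, 118.1, 141.1 and 142.0 CPM in the IgG libraries. All anti-Ang2 libraries lay above all IgG libraries, with a log2 fold change of 0.52 ± 0.09 (SE). St3gal6 was not called with the melanoma (0.57 ± 0.13) or the macrophage marker sum (0.50 ± 0.12) as a covariate, where the size was kept and the SE was wider, and it was called without anti-Ang2 1, 2 and 3 (0.62 ± 0.12). In the annotation used here, St3gal6 (ENSMUSG00000022747.16, chr16:58468125-58524243 in mm10, minus strand) shares 1603 exon bases with Dcbld2 on the other strand, so that its counts are uncertain to that extent. Dcbld2 averaged 20.8 ± 2.74 CPM in anti-Ang2 and 17.95 ± 1.78 CPM in IgG libraries (log2 fold change 0.21 ± 0.13, SE).

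St3gal4 (ENSMUSG00000032038.7, chr9:35046576-35119268, minus strand) had 141.1, 152.8, 127.2, 110.8 and 130.8 CPM in the anti-Ang2 libraries, against 76.6, 96.4, 114.0, 114.0 and 111.1 CPM in the IgG libraries. Only anti-Ang2 4 lay within the IgG range. The log2 fold change was 0.37 ± 0.12 (SE), and St3gal4 was not called in any setting. It shares 412 exon bases with the non-coding 4930581F22Rik on the other strand, which averaged 6.35 CPM in anti-Ang2 and 5.82 CPM in IgG libraries.

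St3gal1 (ENSMUSG00000013846.9, chr15:67102875-67176830, minus strand) had 29.3, 30.8, 22.6, 27.1 and 26.5 CPM in the anti-Ang2 libraries, against 29.2, 43.0, 42.6, 40.2 and 30.5 CPM in the IgG libraries. IgG 1 and IgG 5 lay within the range of the anti-Ang2 libraries, and the other 3 IgG libraries lay above it. The log2 fold change was -0.45 ± 0.14 (SE). St3gal1 was not called by edgeR but was called lower by DESeq2 (-0.43 ± 0.15).

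St6gal1 (ENSMUSG00000022885.15, chr16:23224740-23360350, plus strand) was the most variable member in both groups. It had 43.0, 32.0, 29.6, 22.1 and 9.72 CPM in the anti-Ang2 libraries, against 4.89, 17.2, 3.91, 29.8 and 10.5 CPM in the IgG libraries. The highest library was 4.42-fold above the lowest in anti-Ang2 and 7.61-fold in IgG, and the groups overlapped (log2 fold change 1.04 ± 0.54, SE; not called). The summed melanoma markers were 5575, 3974, 4569, 1711 and 1133 CPM in the same anti-Ang2 libraries and 442, 1751, 268, 1859 and 578 CPM in the same IgG libraries. The IgG libraries had the same order by St6gal1 and by the melanoma sum, and so did the anti-Ang2 libraries except that anti-Ang2 2 and 3 changed places. With the melanoma sum as a covariate the log2 fold change turned to -0.44 ± 0.28 (SE). The melanoma sum also averaged higher in anti-Ang2, so this fit cannot tell melanoma RNA from treatment. The part of melanoma RNA in the St6gal1 level was not tested. The relation of St6gal1 to the melanoma sum was looked for after the values were seen.

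**Figure D3:**
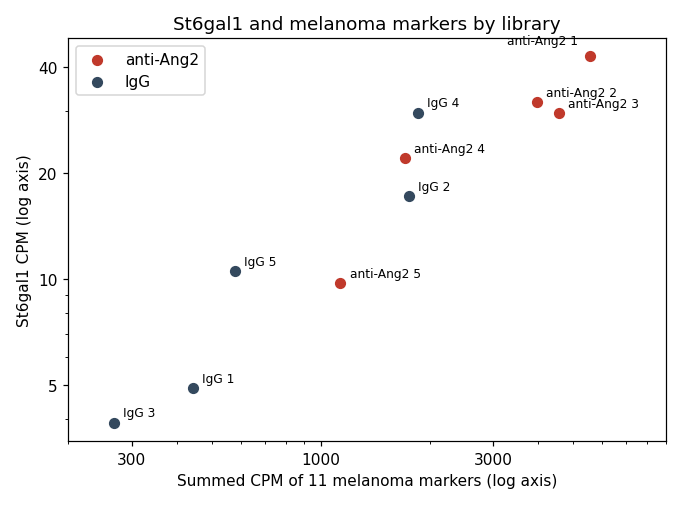
St6gal1 CPM against the summed CPM of 11 melanoma markers in the 10 libraries, both on log axes, with anti-Ang2 in red and IgG in dark blue. Libraries with more melanoma marker RNA had more St6gal1 in both groups, except between anti-Ang2 2 and 3, and anti-Ang2 1, 2 and 3 take the upper right of the plot, with anti-Ang2 1 at 43.0 CPM. Anti-Ang2 4 and 5 lie among the IgG libraries.

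At the end of the route, Neu1 (ENSMUSG00000007038.5, chr17:34931253-34935953, plus strand), the lysosomal sialidase that strips sialic acid from glycoproteins taken up for breakdown, had 69.7, 58.7, 69.9, 58.2 and 66.3 CPM in the anti-Ang2 libraries. It had 70.0, 74.0, 61.1, 62.7 and 62.2 CPM in the IgG libraries. The ranges overlapped between 61.1 and 69.9 CPM, and the log2 fold change was -0.03 ± 0.09 (SE).

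Levels of different members can be compared only per length, for which the authors' deposited FPKM were used. In anti-Ang2 libraries the order of mean FPKM was St3gal4 (47.2 ± 4.31), St3gal6 (34.4 ± 4.26), Cmas (27.7 ± 2.36), Neu1 (18.1 ± 1.85), Slc35a1 (17.2 ± 1.08), Gne (13.6 ± 1.6), Nans (12.5 ± 0.914), St6gal1 (5.76 ± 2.57), St3gal1 (5.70 ± 0.586) and Cmah (4.6 ± 1.46; SD, n = 5 each). In IgG libraries it was Cmah (46.3 ± 15.5), St3gal4 (35.97 ± 5.37), St3gal6 (23.6 ± 2.79), Cmas (20.4 ± 1.63), Neu1 (18.2 ± 1.76), Slc35a1 (16.2 ± 1.31), Gne (15.2 ± 1.52), Nans (11.9 ± 0.954), St3gal1 (7.66 ± 1.40) and St6gal1 (2.78 ± 2.28). By deposited FPKM, Cmah thus stood last of the 10 in anti-Ang2 and first in IgG libraries, while the other 9 kept their order except for St6gal1 and St3gal1. The exon length behind the deposited St3gal1 FPKM was 4985 bases, against 6851 in GENCODE M21. With CPM per kilobase on M21 lengths, Cmah (4.10 ± 1.21) and St3gal1 (3.98 ± 0.457) changed places at the end of the anti-Ang2 order (SD, n = 5 each), and the other ranks in both groups were the same. Within anti-Ang2 libraries the ranges of neighbours in this order did not overlap between St3gal4 and St3gal6, Cmas and Neu1, and Nans and St6gal1, and overlapped between all other neighbours. Within IgG libraries they did not overlap between St3gal4 and St3gal6, Gne and Nans, and Nans and St3gal1.

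**Figure D4:**
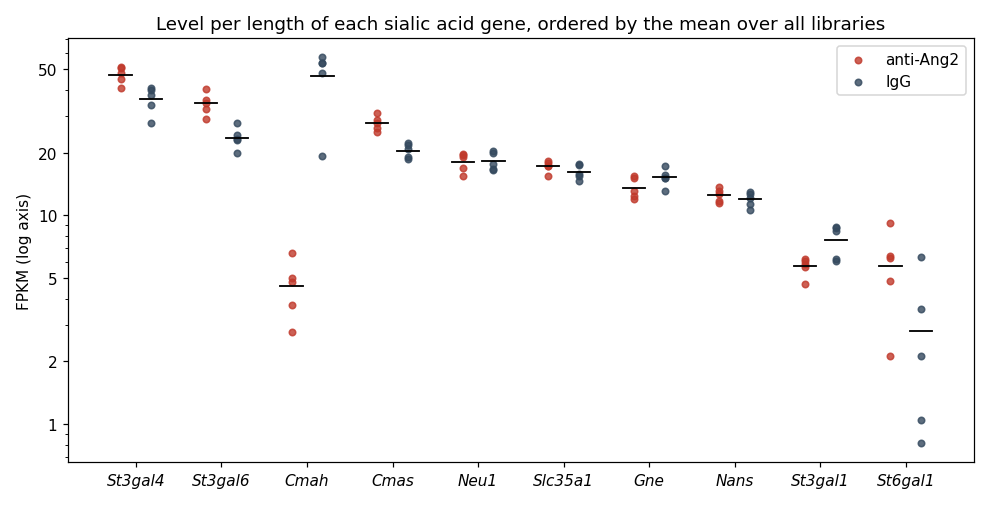
FPKM of each sialic acid gene in every library on a log axis, ordered by the mean over all libraries, with anti-Ang2 left of IgG for each gene and the mean as a line. Cmah lies at 4.6 FPKM in anti-Ang2 and 46.3 FPKM in IgG libraries, and the gap between the group means is smaller in each of the other 9 genes.

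The FPKM of Cmah relative to that of Cmas, the enzyme that supplies its substrate, was 0.193, 0.130, 0.106, 0.182 and 0.213 in the anti-Ang2 libraries, against 0.871, 2.57, 3.02, 2.20 and 2.90 in the IgG libraries. In all 5 anti-Ang2 libraries the Cmah transcript was therefore scarcer than that of Cmas, as it was in IgG 1, while it was more abundant in the other 4 IgG libraries. The 4 transferases summed to 93.0 ± 5.47 FPKM in anti-Ang2 and 70.0 ± 6.32 FPKM in IgG libraries (SD, n = 5 each). St3gal4 made up 50.7 ± 3.09% of this sum in anti-Ang2 and 51.3 ± 5.12% in IgG libraries, and St3gal6 37.0 ± 4.53% and 34.0 ± 6.00% in the same order. The share of St3gal1 was 6.13 ± 0.546% in anti-Ang2 and 10.9 ± 1.73% in IgG libraries, and that of St6gal1 was 6.17 ± 2.57% and 3.81 ± 2.78%. St3gal1 itself overlapped between the groups in CPM, and the sum by which it is divided was higher in anti-Ang2. Sialyltransferases that are not members are left out of the sum. These sums and shares rest on the authors' exon lengths, describe the same contrast and carry no test.

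Other genes of sialic acid metabolism were taken from 7 lists written from textbook knowledge, with earlier results of these data known. Of their 70 genes, 62 were in the table and 52 passed the filter on low counts. Among the 52, 3 were called higher and 4 lower, a share of 13.5%, beside 4.13% over all tested genes. Their median log2 fold change was 0.11. Since the lists were written with such results known, nothing is read from the share of these genes called. By DESeq2 and by limma alike, 7 of these genes were called higher and 6 lower. Of all genes tested by edgeR, DESeq2 called 4.62% higher and 5.23% lower, limma called 4.13% higher and 4.8% lower, and 18.2% had an unadjusted p under 0.05 by edgeR. Counts by these rules in single lists are to be read against those shares. Of the 7 genes called by edgeR, Nrp2 alone kept its call without anti-Ang2 1, 2 and 3 and in the fit with the melanoma covariate, and Npl and Nrp2 alone kept it with the macrophage sum.

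Among genes that make, recycle or modify free sialic acid, Npl fell and Slc17a5 rose, and Casd1 and Siae were not called (4 tested of 5). Npl, the lyase that cleaves sialic acid, had 8.24, 10.5, 7.01, 9.32 and 7.45 CPM in the anti-Ang2 libraries, against 22.1, 20.6, 42.6, 29.3 and 21.5 CPM in the IgG libraries. The groups did not overlap, and the log2 fold change was -1.68 ± 0.22 (SE; adjusted p = 0.00179 by edgeR). Adding the melanoma sum gave Npl a log2 fold change of -1.46 ± 0.29 (adjusted p = 0.0535 by edgeR), and leaving out anti-Ang2 1, 2 and 3 gave -1.71 ± 0.33 (adjusted p = 0.0535 by edgeR). Slc17a5, the carrier that lets sialic acid out of lysosomes, averaged 45.4 ± 2.74 CPM in anti-Ang2 and 35.6 ± 2.23 CPM in IgG libraries (log2 fold change 0.35 ± 0.08, adjusted p = 0.0314 by edgeR). It stayed called in 2 of the 10 fits without 1 library, the highest adjusted p of these fits being 0.0943 (edgeR, without IgG 3), and adding the melanoma sum gave 0.22 ± 0.10 (adjusted p = 0.386 by edgeR). Siae, an esterase that removes acetyl groups from sialic acid, was the most abundant of the list by CPM, at 71.7 ± 15.7 CPM in anti-Ang2 and 83.5 ± 9.71 CPM in IgG libraries (adjusted p = 0.466 by edgeR). Nanp, the phosphatase that acts between Nans and Cmas, was too low to be tested, with a mean of 0.192 CPM over all libraries.

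Of 16 other sialyltransferases, 13 were in the table and 10 were tested. St8sia6 rose and none fell by edgeR, against 1 higher and 1 lower by DESeq2 and by limma, and 4 had an unadjusted p under 0.05. St8sia6, which adds a further sialic acid to a sialylated glycan, had 208.6, 200.9, 192.6, 239.3 and 286.4 CPM in the anti-Ang2 libraries, against 179.3, 97.0, 79.9, 94.0 and 138.3 CPM in the IgG libraries. The groups did not overlap (log2 fold change 0.94 ± 0.21, SE; adjusted p = 0.0303 by edgeR). St8sia6 stayed called in 4 of the 10 fits without 1 library (highest adjusted p 0.0811 by edgeR, without IgG 2). Adding the melanoma sum gave 1.26 ± 0.27 (adjusted p = 0.0659 by edgeR), and leaving out anti-Ang2 4 and 5 gave 0.76 ± 0.24 (adjusted p = 0.0966 by edgeR). By mean FPKM over all libraries, St8sia6 came after St3gal4 and St3gal6 and before the other sialyltransferases. It had 30.8 ± 6.04 FPKM in anti-Ang2 and 15.8 ± 5.65 FPKM in IgG libraries. Next came St3gal2 at 16.4 ± 2.19 FPKM in anti-Ang2 and 17.7 ± 1.69 FPKM in IgG libraries. In IgG libraries alone, the mean of St3gal2 was above that of St8sia6.

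Of 16 genes that build the galactose-bearing branches on which sialic acid is placed, 2 fell and none rose by edgeR (3 lower and 1 higher by DESeq2, 3 lower and 0 higher by limma, and 6 at an unadjusted p under 0.05 by edgeR). The galactosyltransferase B4galt4 averaged 59.6 ± 4.63 CPM in anti-Ang2 and 82.6 ± 7.38 CPM in IgG libraries (log2 fold change -0.47 ± 0.09, adjusted p = 0.0106 by edgeR). Mgat1, the enzyme that starts complex N-glycan branching, averaged 265 ± 19.3 CPM in anti-Ang2 and 360 ± 37.5 CPM in IgG libraries (log2 fold change -0.44 ± 0.09, adjusted p = 0.0169 by edgeR). Mgat1 lost its call without IgG 2 (adjusted p = 0.0529) and without IgG 3 (adjusted p = 0.058 by edgeR), while B4galt4 kept its call without any 1 library. The most abundant of these genes by CPM, Mgat4b, had 472 ± 73.2 CPM in anti-Ang2 and 501 ± 30.3 CPM in IgG libraries (adjusted p = 0.749 by edgeR).

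Of the 7 genes that supply or reuse the amino sugar precursor, 0 were called by edgeR, 3 had an unadjusted p under 0.05, and 2 were called higher by DESeq2 and by limma. The most abundant by CPM, Renbp, had 67.0 ± 11.9 CPM in anti-Ang2 and 57.1 ± 5.82 CPM in IgG libraries (log2 fold change 0.23 ± 0.13). Of 3 tested sialidases and lysosomal partners, 0 were called by edgeR, 1 had an unadjusted p under 0.05, and 1 was called higher by DESeq2 and by limma. Ctsa, the protective protein that holds Neu1 in its active complex, was higher in every anti-Ang2 than in every IgG library, at 358 ± 35.3 and 294 ± 8.87 CPM in the same order, but did not pass (log2 fold change 0.28 ± 0.08, adjusted p = 0.0642 by edgeR).

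Of 12 lectins that bind sialylated glycans, 4 passed the filter and 0 were called by edgeR, DESeq2 or limma, while 1 had an unadjusted p under 0.05 by edgeR. Selp, an adhesion receptor of endothelial cells for leukocytes, was the most abundant by CPM, with 90.2 ± 34.3 CPM in anti-Ang2 and 83.5 ± 15.7 CPM in IgG libraries (adjusted p = 0.869 by edgeR). Among 9 carriers of sialylated glycans, 8 were tested, of which Nrp2 fell and Ncam1 rose by edgeR. DESeq2 called 1 higher and 1 lower, limma called 2 higher and 1 lower, and 6 had an unadjusted p under 0.05 by edgeR. Nrp2, a co-receptor that can carry polysialic acid, averaged 262 ± 40.5 CPM in anti-Ang2 and 735 ± 216 CPM in IgG libraries (log2 fold change -1.49 ± 0.18, adjusted p = 0.00142 by edgeR). Ncam1, the best known carrier of polysialic acid, averaged 64.5 ± 13.2 CPM in anti-Ang2 and 39.9 ± 8.85 CPM in IgG libraries (log2 fold change 0.69 ± 0.17, adjusted p = 0.0487 by edgeR). It was called in 2 of the 10 fits without 1 library (highest adjusted p 0.106 by edgeR, without anti-Ang2 3), and leaving out anti-Ang2 1, 2 and 3 gave 0.42 ± 0.21 (adjusted p = 0.368 by edgeR). Lyve1, the most abundant by CPM, had 5646 ± 765 CPM in anti-Ang2 and 4655 ± 337 CPM in IgG libraries (adjusted p = 0.181 by edgeR). Pdpn, which encodes podoplanin, had 229 ± 28.9 CPM in anti-Ang2 and 276 ± 16.7 CPM in IgG libraries. Its log2 fold change was -0.27 ± 0.09 (SE, adjusted p = 0.151 by edgeR). Every anti-Ang2 library was below every IgG library in Pdpn, as for 3.76% of all tested genes.

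**Figure D5:**
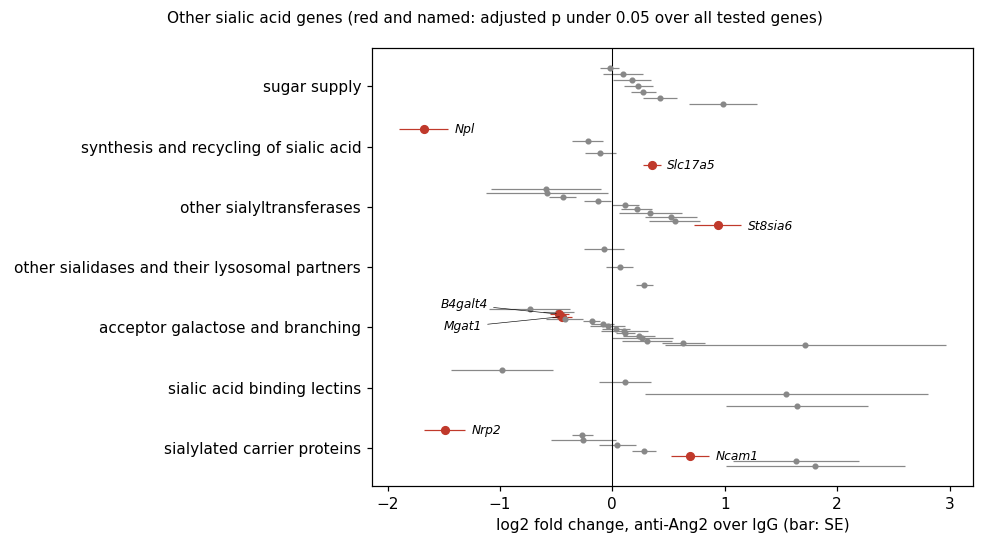
Log2 fold change (anti-Ang2 over IgG) with its SE for the 52 tested genes of the 7 other sialic acid lists, with the 7 called genes in red. Npl at -1.68 and Nrp2 at -1.49 lie farthest to the left, and St8sia6 at 0.94 is the largest called difference to the right.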

How the data were processed

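Per the labels, cDNA from sorted LEC was made with SMART-Seq v4 reagents, a chemistry without strand information. STAR, featureCounts and DESeq2 were used with mm10, per the submitters' processing notes; their versions and the annotation release are not given in the sources used here. The deposited table holds raw counts per gene and library, which entered every test, and FPKM, which the authors computed per exon length and which were used here only to compare levels between genes. Its column headed TPM is a relative score of the authors, since it exceeds the fixed sum of TPM, and the deposited signal (baseMean), log2 fold changes, their errors (a score) and p-values of the authors were not used. There were 0 unmapped columns of values per sample.

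Counts were tested with edgeR 4.0.16 in R 4.3.3 (quasi-likelihood F test on treatment alone, TMM, filterByExpr minima of 10 per library and 15 in total). A gene was called where its p, adjusted by Benjamini-Hochberg over all 16240 tested genes, was under 0.05, and the SE was derived from the same test. The code was tested on simulated data. Alternatives used DESeq2 1.42.0, limma 3.58.1 (voom with quality weights), RLE factors, no filter, marker sums as covariates, a replicate block and left-out libraries. Marker sums were compared between groups by exact permutation of the libraries, two-sided. Of 23510 row IDs, 23435 matched GENCODE M21 (mm10) without the version and 19508 with it; Cmah, St3gal1, St3gal6 and St6gal1 differed in version, so their coordinates are those of the nearest release held. The exon length implied by FPKM equals that of M21 except for Cmah (9972 against 10660 bases), St3gal1 and St3gal6.

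The members and all lists were chosen with earlier results of these data known. Named were all members, every called gene of the lists and the most abundant gene of each list by CPM. Pdpn was added after the values were seen. The series design calls the replicates independent. The spread between libraries includes that of mice, sorting and amplification. Deviations of same-numbered libraries were only weakly correlated (-0.125 to 0.113), which cannot show whether these libraries were handled together.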

Additional observations from a re-analysis of the deposited data

Results flagged for a closer look

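In 4 of the 46 groups of 5 libraries examined, the highest or lowest library stood apart from the rest by more than 0.710 of the group's range; chance gives about 1 such group in 20. Cmah in IgG 1 was at 181.5 CPM, against 455.8 to 558.1 CPM in the other IgG libraries. B4galt4 in anti-Ang2 1 was at 51.5 CPM, against 59.9 to 62.9 CPM in the other anti-Ang2 libraries. Lyve1 was at 4305 CPM in anti-Ang2 1, against 5765 to 6187 CPM in the other anti-Ang2 libraries, and at 5244 CPM in IgG 1, against 4429 to 4600 CPM in the other IgG libraries.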

How the results depend on the processing

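Counts of called genes are given as higher and lower. Cmah kept its call in all 19 other settings. Without 1 library, 2 and 1 members were called in every fit. Other sialic acid genes called ranged from 0 to 2 higher (3 with all libraries) and from 3 to 5 lower, and genes over the whole table from 82 to 326 higher and from 259 to 468 lower. Members called were 1 and 1 with the replicate block, 0 and 1 with the melanoma sum, 0 and 1 with the macrophage sum, 1 and 1 without anti-Ang2 1, 2 and 3, and 2 and 2 by DESeq2, where St3gal1 was added. Other sialic acid genes called higher were 1 without the filter, 1 with the replicate block, 0 with either sum, 0 without anti-Ang2 1, 2 and 3, and 7 by DESeq2 and by limma; without anti-Ang2 4 and 5, chosen after the data were seen, they were 6. Those called lower were 1 with the melanoma sum, 2 with the macrophage sum and 2 without anti-Ang2 1, 2 and 3. Genes over the whole table were 82 and 268 with the replicate block, 24 and 91 with the melanoma sum, 28 and 114 with the macrophage sum, 780 and 888 by DESeq2, 670 and 780 by limma, 55 and 178 without anti-Ang2 1, 2 and 3, and 531 higher without anti-Ang2 4 and 5. The replicate block ended the calls of Cmas (log2 fold change 0.42), Slc17a5, Mgat1 and Ncam1.

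The sign turned for these uncalled genes. St6gal1 was at -0.44 with the melanoma sum, Renbp at -0.012, Siae at 0.12 and Selp at -0.018. Without anti-Ang2 1, 2 and 3, Nans was at -0.12, Renbp at -0.080, Siae at 0.051 and Selp at -0.057. Mgat4b was at 0.029 without anti-Ang2 4 and 5. Without 1 library, Selp ranged from -0.125 (without anti-Ang2 3) to 0.256 and Neu1 from -0.061 to 0.012, turning without anti-Ang2 2, anti-Ang2 4 or IgG 2. The cause was not tested. With CPM per kilobase, 2 members (Cmah and St3gal1) changed places in the anti-Ang2 order of levels.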

Other observations

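Within-group deviations of log2 CPM were compared across the 10 libraries as a description. The 2 genes whose deviations were most like those of Cmah, among 16239, were Osgin2 (Pearson r 0.95) and 4931406C07Rik (0.95). Of the pairs of sialic acid genes, the highest were Cmah with St3gal1 (0.59) and with St3gal4 (0.58), and the lowest was Nans with St3gal6 (-0.61). IgG 1 was the lowest IgG library for Cmah, St3gal1 and St3gal4 (181.5, 29.2 and 76.6 CPM). The correlations of Cmah with St3gal1 and St3gal4 were not computed without it. All points share the libraries, their depth and their scaling. BC106179, a non-coding gene that shares 200 exon bases with St6gal1 on the other strand, averaged 0.536 CPM in anti-Ang2 and 0.0121 CPM in IgG libraries.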
